A study of Homo sapiens and Mus musculus with 12 samples.

Results

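The genes described here are 10 genes of the mouse gut that encode secreted antimicrobial and acute-phase proteins or enzymes that make reactive oxygen and nitric oxide: Reg3b, Reg3g, Retnlb, Ang4, Saa1, Saa3, Duox2, Duoxa2, Nos2 and Lcn2. They were chosen by symbol, and all 10 were found among the 17383 genes of the mouse table. RNA was sequenced from colon of Zfp280c knock-out mice (3 libraries) and wild-type mice (3 libraries). All animals were C57BL/6J and 12 weeks old. The labels do not say how the knock-out was made, whether it was limited to a cell type, or which stretch of colon was taken. The study also holds RKO colon cancer cells with an inducible shRNA against ZNF280C, which were normalized in a separate table and were not used here. Levels are FPKM, read fragments scaled by transcript length and by library size, so they can be compared between genes per unit of length.

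The gut epithelium is separated from bacteria by mucus and releases proteins that kill them, bind them or starve them of iron. Reg3b and Reg3g are lectins that bind bacterial cell walls, Retnlb and Ang4 encode bactericidal proteins of goblet and Paneth cells, and serum amyloid A proteins carry lipids such as retinol during infection. DUOX2, held at the surface by its maturation factor DUOXA2, makes hydrogen peroxide, NOS2 makes nitric oxide, and LCN2 binds bacterial iron carriers. Many of these genes are known to respond to the microbiota through interleukin-22, interleukin-17 and Toll-like receptor signals, and many differ in level along the gut.

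Zfp280c stood at 0.09, 0.09 and 0.22 FPKM in the knock-out libraries and at 2.48, 2.25 and 3.17 in the wild-type libraries, as labelled. FPKM per library summed to between 491900 and 507206. All 11 epithelial markers were found in every library, and summed to 12040 to 13114 FPKM in the knock-outs and 10395 to 12941 in the wild-types. Epcam stayed between 917.25 and 1060.72 FPKM, but Krt20 ran from 604 to 1720.42 and Cdx2 from 33.28 to 154.94. Most of the 11, these included, were lowest in wild-type replicate 3, while Cdh1, Krt19 and Elf3 were not. Squamous markers summed to at most 2.08 FPKM in any library, and smooth muscle markers to 461 to 739 in the knock-outs and 355 to 577 in the wild-types. Wild-type replicate 2 stood apart from the other wild-type libraries in its HOX genes, which are set by position along the gut. Hoxb6 was at 18.24, 8.91 and 17.63 FPKM in the knock-outs and 0.65, 18.23 and 0.20 in the wild-types. A position score, the mean log2 level of 3 proximal HOX genes minus that of 5 distal ones, was 2.68, 1.28 and 1.78 in the knock-outs and -2.43, 1.88 and -4.42 in wild-type replicates 1 to 3. The 3 knock-outs and wild-type replicate 2 thus carried the more proximal HOX pattern, and the fits between genotypes are also given without that library and with the score as a covariate.

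The 6 libraries differed most in Reg3b, Reg3g and Retnlb, which were high in all 3 knock-outs and in wild-type replicate 2 and low in wild-type replicates 1 and 3. Saa1 had the opposite split. Duox2, Duoxa2 and Ang4 were low chiefly in wild-type replicate 3, while Nos2 and Lcn2 were low everywhere, between 0.33 and 2.1 FPKM. With all 6 libraries, 0 of the 9 genes that could be tested passed the test between genotypes in limma (0% of all genes did), though the unadjusted p was under 0.05 in 3 (12.5% of all genes).

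**Figure D1:**
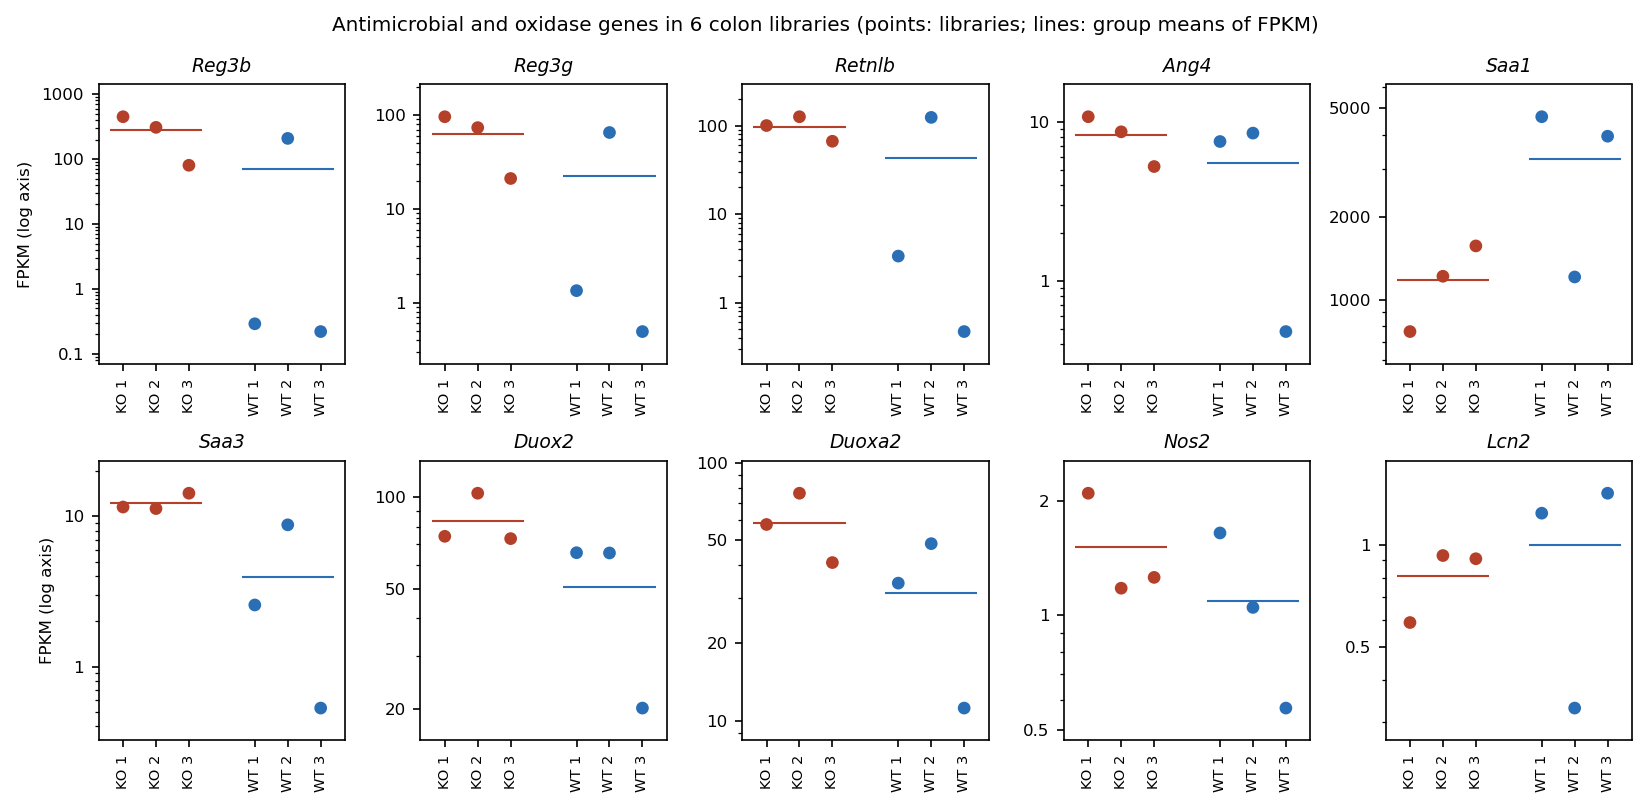
FPKM on log axes for each of the 10 genes in the 3 knock-out (KO) and 3 wild-type (WT) colon libraries, with a line at each group's mean. Wild-type replicate 2 lies with the knock-outs for Reg3b, Reg3g, Retnlb and Saa1, and wild-type replicate 3 is the lowest library for 8 of the 9 tested genes (26% of all genes).

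Reg3b, the lectin gene with the widest range, stood at 448.78, 307.87 and 80.17 FPKM in knock-out replicates 1 to 3 and at 0.29, 208.06 and 0.22 in wild-type replicates 1 to 3. The groups overlapped, because wild-type replicate 2 exceeded knock-out replicate 3. Within the wild-type group alone, replicate 2 was 717-fold above replicate 1 and 946-fold above replicate 3. Among all 17383 genes, Reg3b ranked 182, 278 and 1071 in the knock-outs and 376 in wild-type replicate 2. Its rank was 13151 in wild-type replicate 1 and 13317 in replicate 3.

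Reg3g, its close relative, stood at 96.3, 73.69 and 21.1 FPKM in the knock-outs and 1.34, 65.34 and 0.49 in the wild-types. It had the same libraries high and the same libraries low, and knock-out replicate 3 was again the lowest of the 4 high ones. The Reg3b level was 4.66, 4.18, 3.80 and 3.18 times that of Reg3g in the 3 knock-outs and wild-type replicate 2. In wild-type replicates 1 and 3, where both were near or below 1 FPKM, it was 0.216 and 0.449 times. These low values are printed to 2 decimals with unknown read depth, so the ratios there are imprecise.

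Retnlb, which encodes the goblet cell protein RELM-beta, stood at 100.09, 125.91 and 66.49 FPKM in the knock-outs and 3.35, 123.76 and 0.47 in the wild-types. Wild-type replicate 2 lay inside the range of the knock-outs. Ang4, a secreted ribonuclease of the angiogenin family, stood at 10.75, 8.64 and 5.23 FPKM in the knock-outs and 7.51, 8.48 and 0.48 in the wild-types. Here only wild-type replicate 3 was low, 15.6-fold below wild-type replicate 1, so Ang4 did not share the split of Retnlb. Ang, another member of that family, varied less, between 15.27 and 27.38 FPKM. Members of the Ang and Reg families have similar sequences, and how reads that fit more than 1 of them were counted is not given in the sources used here.

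The goblet cell markers did not follow Retnlb in one direction. Summed over all 8 markers, they came to 4032 to 7386 FPKM in the knock-outs and 8886 to 11388 in the wild-types, and 0 of the 8 was at 0 in any library. Muc2, the main mucin, stood at 1176.13, 645.08 and 1088.56 FPKM in the knock-outs and 474.81, 1335.99 and 438.37 in the wild-types, the same split as Retnlb. Clca1, also a goblet cell product, stood at 436.51, 211.31 and 504.95 in the knock-outs and 1391.8, 539.74 and 1619.24 in the wild-types, the opposite one. Clca1, Zg16 and Tff3 were higher in every wild-type than in any knock-out (3 of 8, against 16.9% of all genes without overlap). Agr2 and Spink4 had neither split. With the position score as a covariate, all 8 log2 fold changes were negative (median -0.54). Of the Paneth cell list, 4 of 8 markers were in the table, and they summed to 8.54 to 14.9 FPKM in the knock-outs and 10.9 to 22.7 in the wild-types. The defensin Defa22 was at 0 in 5 libraries and 0.14 FPKM in knock-out replicate 3. Mmp7, the protease that activates defensins, had the split of Retnlb, at 3.33, 1.47 and 2.77 FPKM in the knock-outs and 0.26, 2.55 and 0.06 in the wild-types. Lyz1, a lysozyme, was highest in wild-type replicates 1 (21.68) and 3 (14.59) and ranged from 6.39 to 11.32 elsewhere, and Itln1 ranged from 0.47 to 1.3. Their part in the levels of Retnlb and Ang4 was not tested. In bulk tissue, fewer cells of a type and less RNA per cell cannot be told apart.

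Saa1, a serum amyloid A gene, was the most abundant of the 10 in every library and was split in the opposite direction to Reg3b, Reg3g and Retnlb. It stood at 764.84, 1217.88 and 1571.94 FPKM in the knock-outs and 4660.32, 1210.65 and 3955.55 in the wild-types. Wild-type replicates 1 and 3 were the highest, and wild-type replicate 2 fell inside the knock-out range. In wild-type replicates 1 and 3 Saa1 ranked 3 and 4 among all genes and made up 97.5% and 99.1% of the summed FPKM of the 10 genes, against 48.8%, 63.2% and 83.8% in the knock-outs and 69.6% in wild-type replicate 2.

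Saa3, a further serum amyloid A gene, had the opposite split to Saa1, at 11.52, 11.25 and 14.23 FPKM in the knock-outs and 2.57, 8.77 and 0.53 in the wild-types. All 3 knock-outs lay above all 3 wild-types, with replicate 2 the nearest. Saa1 was 66.4 to 110 times Saa3 in the knock-outs, 138 times in wild-type replicate 2, and 1813 and 7463 times in wild-type replicates 1 and 3. Saa2 kept a nearly fixed proportion to Saa1, which was 14.4 to 15.9 times Saa2 in all 6 libraries. Saa1 and Saa2 are near-identical copies, so shared reads may have been divided between them and the values of both are uncertain.

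Saa3 is also made by adipocytes and macrophages, whose markers were therefore read beside it. The 8 adipocyte markers summed to 71.2 to 151 FPKM in the knock-outs and 10.6 to 53.0 in the wild-types, and of these Lep was at 0 in wild-type replicates 1 and 3. The 10 macrophage markers summed to 33.6 to 52.7 FPKM in the knock-outs and 43.8 to 69.4 in the wild-types, with none at 0. The part of adipocytes in the Saa3 level was not tested.

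Duox2, the epithelial NADPH oxidase gene, stood at 74.41, 103.3 and 73.12 FPKM in the knock-outs and 65.68, 65.56 and 20.13 in the wild-types. The groups did not overlap, but wild-type replicates 1 and 2 stood just below the lowest knock-out, and wild-type replicate 3 was 3.26-fold below them. Duoxa2 stood at 57.66, 76.2 and 41.05 FPKM in the knock-outs and 34.17, 48.6 and 11.21 in the wild-types, with knock-out replicate 2 highest and wild-type replicate 3 lowest, as for Duox2. The 2 genes stayed in a narrow proportion, with Duox2 1.29 to 1.92 times Duoxa2 across the libraries. The related Duox1 and Duoxa1 were at most 0.19 and 0.21 FPKM in any library.

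Nos2, the inducible nitric oxide synthase, stood at 2.1, 1.18 and 1.26 FPKM in the knock-outs and 1.65, 1.05 and 0.57 in the wild-types. Its groups overlapped. Knock-out replicate 1 was the highest library, 3.68-fold above wild-type replicate 3, the lowest.

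Lcn2, the siderophore-binding lipocalin, stood at 0.59, 0.93 and 0.91 FPKM in the knock-outs and 1.24, 0.33 and 1.42 in the wild-types. Wild-type replicate 2 was the lowest of all, and wild-type replicates 1 and 3 the highest, as for Saa1. Its mean over the 6 libraries, 0.903 FPKM, fell below the minimum of 1 for testing, whereas Nos2, at 1.30, lay just above it. The exact permutation test of its log2 levels gave p = 0.8, where the smallest p possible with 3 against 3 is 0.1. Lcn2 and Nos2 are also made by neutrophils and macrophages. Of the 8 neutrophil markers in the table, S100a8 and S100a9 reached at most 0.15 and 0.11 FPKM, and both were at 0 in several libraries. The neutrophil sum was 7.32 to 12.6 FPKM in the knock-outs and 12.1, 193 and 272 in the wild-types, the last 2 being nearly all Ly6g, at 188.77 and 268.34 in wild-type replicates 1 and 3.

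By level, Saa1 was first of the 10 in all 6 libraries. Reg3b was second in the 3 knock-outs and wild-type replicate 2, and last in wild-type replicates 1 and 3, where Duox2 and Duoxa2 took the places after Saa1. In the knock-outs, mean levels ran from Saa1 (1185 ± 405 FPKM) and Reg3b (279 ± 186) through Retnlb (97.5 ± 29.8), Duox2 (83.6 ± 17.1), Reg3g (63.7 ± 38.6) and Duoxa2 (58.3 ± 17.6). Saa3 (12.3 ± 1.65), Ang4 (8.21 ± 2.79), Nos2 (1.51 ± 0.510) and Lcn2 (0.810 ± 0.191; all SD, n = 3) followed. The SD ranges of Retnlb, Duox2, Reg3g and Duoxa2 overlapped, but the genes were measured in the same libraries. Within each knock-out, Retnlb stood above Reg3g and Duoxa2, and Duox2 stood above Duoxa2. The order of Duox2 against Retnlb and Reg3g, and of Reg3g against Duoxa2, changed between knock-outs. In the wild-type group the SD exceeded the mean for Reg3b (69.5 ± 120), Reg3g (22.4 ± 37.2), Retnlb (42.5 ± 70.4) and Saa3 (3.96 ± 4.29; SD, n = 3).

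The comparison between genotypes asked whether loss of Zfp280c alters these levels. Levels were compared as log2(FPKM + 1) with limma over the 11366 genes with a mean of at least 1 FPKM, and calls were made where the Benjamini-Hochberg adjusted p was under 0.05. Of the 10 genes, 9 were tested and 0 were called in limma, as for all genes tested (0%). At an unadjusted p under 0.05 stood 3 of the 9 (Reg3b, Saa1 and Saa3), against 12.5% of all genes. The groups did not overlap in 2 of the 9, Saa3 and Duox2, against 16.9% of all genes. Log2 fold changes were positive in 8 of the 9, against 44.6% of all genes, with a median of 1.05 against -0.02 for all genes.

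Reg3b had the largest log2 fold change in the set, 5.02 ± 2.01 (SE, adjusted p = 0.396, limma). Retnlb stood at 3.36 ± 1.52 (adjusted p = 0.399), Reg3g at 3.15 ± 1.44 (0.404) and Saa3 at 1.82 ± 0.61 (0.396). The oxidase pair was close together, Duoxa2 at 1.05 ± 0.52 (adjusted p = 0.413) and Duox2 at 0.88 ± 0.45 (0.428). Ang4 was at 0.85 ± 0.71 (0.598) and Nos2 at 0.28 ± 0.23 (0.598). Saa1 was the only negative one, at -1.31 ± 0.54 (adjusted p = 0.396). Every one of these 9 is smaller than the distance between the highest and the lowest wild-type library. Between replicates 2 and 3, the log2 levels differed by 7.42 for Reg3b, 6.41 for Retnlb, 5.48 for Reg3g and 1.66 for Duox2. The added 1 FPKM shrinks the change of low genes, and with 0.1 added Reg3b stood at 6.23.

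Leaving out wild-type replicate 2 changed the calls for 5 genes. Of the 10 genes, all tested in that fit, 4 were called higher in knock-out (9.21% of all genes) and 1 lower (7.19%). Reg3b was higher by 7.48 ± 0.66 (SE, log2, adjusted p = 0.00213, limma), Retnlb by 5.24 ± 0.46 (0.00213), Reg3g by 4.86 ± 0.60 (0.00502) and Saa3 by 2.51 ± 0.33 (0.00622). Saa1 was lower, at -1.92 ± 0.29 (adjusted p = 0.00866). Duoxa2 (1.47, adjusted p = 0.0732), Duox2 (1.15, 0.135), Lcn2 (-0.37, 0.152), Ang4 (1.33, 0.249) and Nos2 (0.28, 0.530) were not called. Lcn2 passed the filter here only because its lowest library, wild-type replicate 2 (0.33 FPKM), was left out. Its only libraries above 1 FPKM are wild-type replicates 1 and 3 (1.24 and 1.42), so its test in this fit carries no weight. The 2 wild-type libraries that remain are those with the distal HOX pattern, so in this fit genotype and position score cannot be told apart.

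With the position score as a covariate and all 6 libraries, each of the 9 fitted differences was smaller in size than without it. Of the 9 tested genes, 0 were called in limma. None of the 9 reached an unadjusted p under 0.05, against 3.75% of all genes. The median log2 fold change of the 9 was 0.09, against -0.04 for all genes. Reg3b stood at 0.61 ± 1.10 (adjusted p = 0.992, limma), Saa3 at 0.42 ± 0.27 (0.989), Saa1 at -0.20 ± 0.37 (0.994) and Duox2 at 0.18 ± 0.47 (0.997). Retnlb (-0.14), Reg3g (-0.04) and Ang4 (-0.43) turned sign. This fit rests largely on wild-type replicate 2, the only wild-type library with a positive score, and its SEs leave room for differences of either sign.

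**Figure D2:**
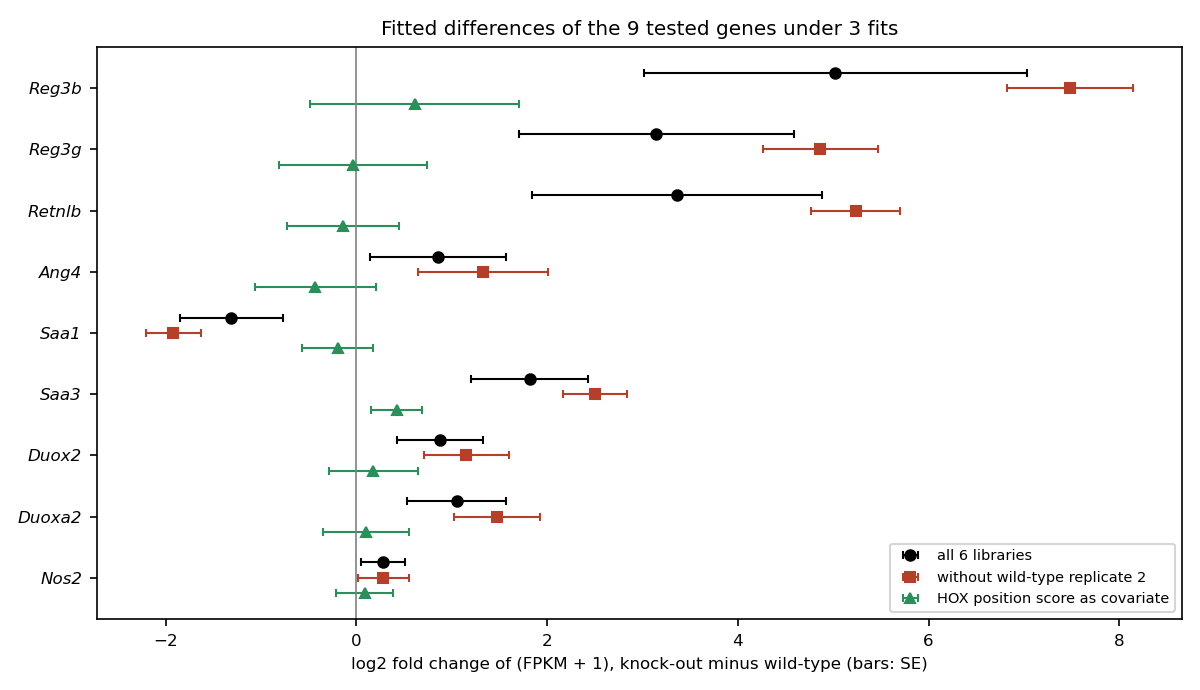
Log2 fold change of FPKM + 1, knock-out minus wild-type, for the 9 tested genes with SE bars, fitted with all 6 libraries, without wild-type replicate 2, and with the HOX position score as covariate. Reg3b moves from 5.02 to 7.48 without that library and to 0.61 with the covariate, while Nos2 stays between 0.09 and 0.28.

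Set against the score, the genes differed in form. Reg3b was similarly low in wild-type replicates 1 (0.29 FPKM) and 3 (0.22), whereas Retnlb and Saa3 were 7.13-fold and 4.85-fold higher in replicate 1 than in replicate 3, whose score was the lower. Duox2 and Ang4 in wild-type replicate 1 were at the level of wild-type replicate 2 (65.68 against 65.56 and 7.51 against 8.48 FPKM), although the scores were -2.43 and 1.88. Among the 4 libraries with a positive score, the order of Reg3b (knock-out 1, knock-out 2, wild-type 2, knock-out 3) was not that of the score (knock-out 1, wild-type 2, knock-out 3, knock-out 2). The libraries form 2 separate clusters on the score, so no pooled correlation is given.

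**Figure D3:**
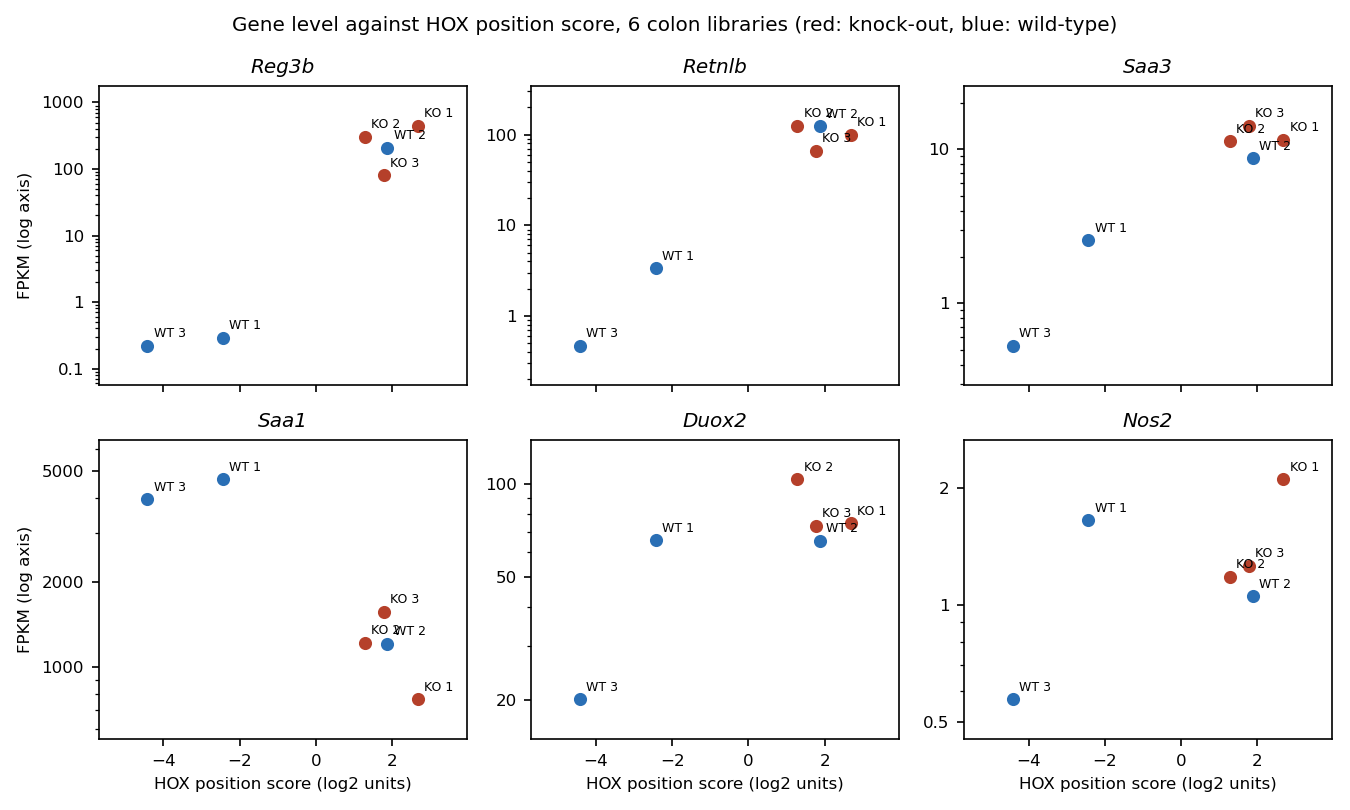
FPKM on log axes against the HOX position score (log2 units) for Reg3b, Retnlb, Saa3, Saa1, Duox2 and Nos2, with each point 1 library. Knock-outs and wild-type replicate 2 share positive scores, where Reg3b lies between 80.17 and 448.78 FPKM, and wild-type replicates 1 and 3 have negative scores and Reg3b near 0.2 to 0.3.

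Wild-type replicate 2 lay within the range of the knock-outs for 6 of the 9 tested genes, against 50.9% of all genes, and below it for Saa3, Duox2 and Nos2. Wild-type replicate 3 was the lowest library for 8 of the 9, all but Saa1, against 26% of all genes. Over the 6 libraries the genes grouped into the pair Reg3b and Reg3g (Pearson r of log2 levels 0.99), with Retnlb near both (0.97 and 0.98), and the pair Duox2 and Duoxa2 (0.97). Ang4 was nearer to Duoxa2 (0.94) and Duox2 (0.93) than to Retnlb (0.77). Saa1 ran against Reg3b (-0.98) and Reg3g (-0.97). These coefficients describe 6 libraries in 2 clusters that share 1 normalization.

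Many other genes had the same pattern, so likeness in 6 libraries is not specific. Between 28 (Nos2) and 1171 (Saa3) genes outside the set correlated with a member above 0.9, and 879 did so with Reg3b. The nearest were the creatine kinase genes Ckm for Reg3b (0.997) and Ckb for Reg3g (0.998), followed by Bag2 (0.995) and Msrb3 (0.996). For Retnlb they were Ppp4c and Gstk1, for Ang4 Creg1 and Slc25a40, for Saa3 Ccdc25 and Sdc1, and for Saa1 its copy Saa2 (0.999) and Afap1l2. For Duox2 they were Bmf and Chp1, for Duoxa2 Ceacam1 (0.999) and Ehd1, and for Nos2 Hist2h2be (0.990) and Pip4k2a. The measure ignores size: Ppp4c, nearest to Retnlb, moved only between 44.83 and 55.28 FPKM.

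Relatives and enzyme partners of the set did not move as one. Of 31 listed genes, 27 were in the table and 14 were tested, 8 with positive and 6 with negative log2 fold changes (median 0.08). In limma 0 of the 14 were called, with 4 at an unadjusted p under 0.05 (12.5% of all genes). Without wild-type replicate 2, 3 were called higher (9.21% of all genes) and 3 lower (7.19%). With the position covariate 0 were called and the median was -0.10, with 3 of the 14 at an unadjusted p under 0.05 (3.75% of all genes). Reg4, a lectin of the same family as Reg3b, ran the other way, at 10.31, 5.61 and 8.34 FPKM in the knock-outs and 109.05, 11.89 and 196.02 in the wild-types (-2.88 ± 0.95, adjusted p = 0.396, limma). It was called lower without wild-type replicate 2 (-4.05, adjusted p = 0.00137) and stood at -0.79 with the covariate. Reg3a was low, at 1.14, 0.68 and 1.06 in the knock-outs and 0.47 in wild-type replicate 2, and was listed at 0 in wild-type replicates 1 and 3 (named after its values were seen). Retnla, a relative of Retnlb, ranged from 1.82 to 4.44 FPKM with no such split, and Retn, which encodes the adipocyte hormone resistin, stood at 0.98 (adjusted p = 0.396). Retn was called higher without wild-type replicate 2 (1.16, adjusted p = 0.0129) and stood at 0.62 with the covariate.

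Nox1, the other colonic oxidase, was high in wild-type replicates 1 and 3 only, at 2.29, 2.26 and 1.68 FPKM in the knock-outs and 7.33, 1.7 and 8.36 in the wild-types (-0.96, adjusted p = 0.408, limma). Its organiser Noxo1 was at 38.09, 31.11 and 38.18 in the knock-outs and 42.16, 41.22 and 47.46 in the wild-types, without overlap (-0.28, adjusted p = 0.396). Arg2, an arginase that competes with NOS2 for arginine, was at 10.22, 8.14 and 9.27 in the knock-outs and 2.68, 7.37 and 1.85 in the wild-types (1.19, adjusted p = 0.396). Without wild-type replicate 2, Nox1 was called lower (-1.53, adjusted p = 0.00233, limma) and Arg2 higher (1.65, 0.00240), while Noxo1 was not called (-0.32, 0.122). With the covariate they stood at 0.05, 0.31 and -0.22, and Nox1 thus turned sign. Of the other nitric oxide synthases, Nos1 ranged from 0.53 to 1.45 FPKM and Nos3 reached at most 0.12.

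**Figure D4:**
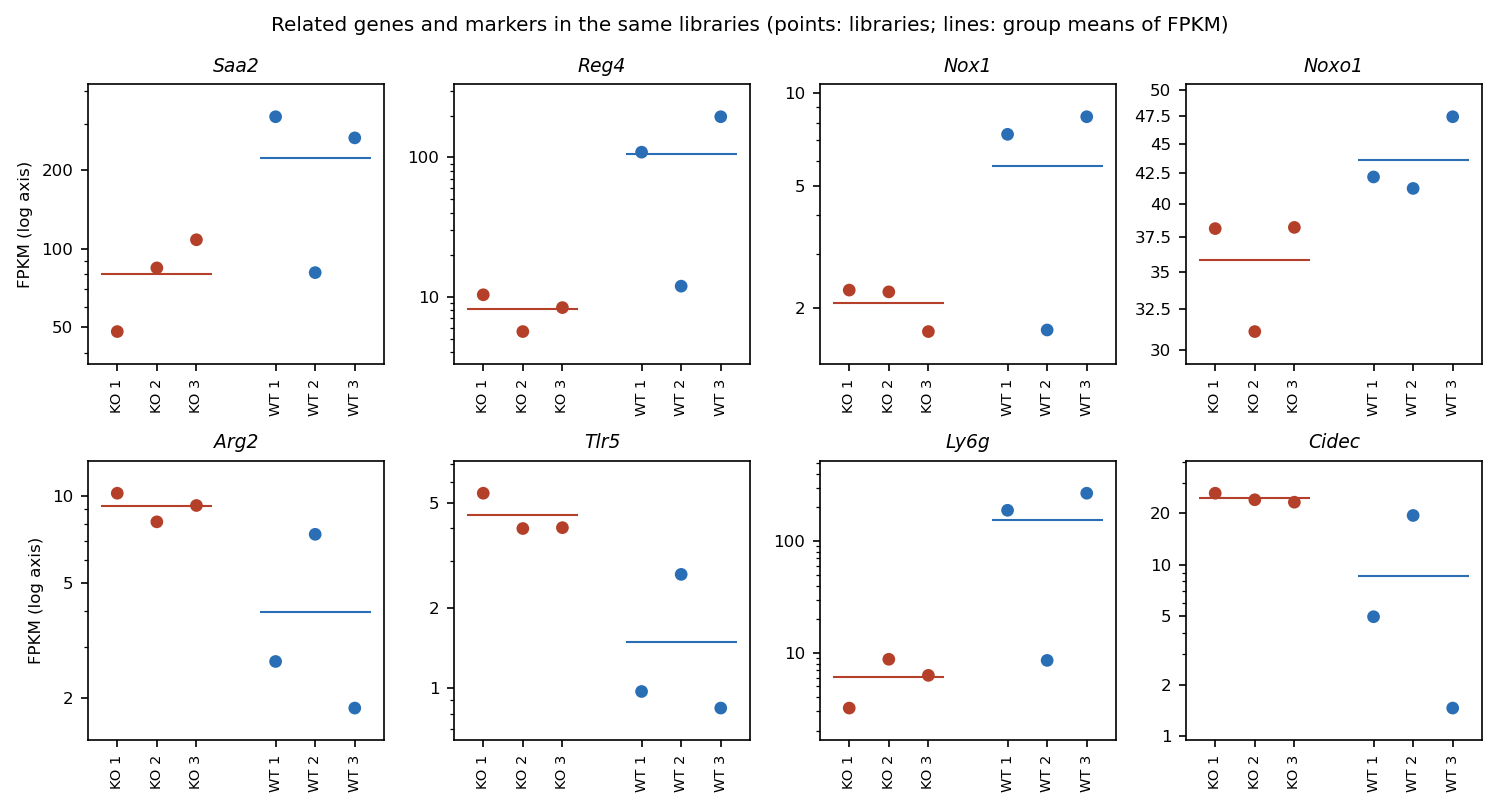
FPKM on log axes in the 6 libraries for related genes (Saa2, Reg4, Nox1, Noxo1, Arg2, Tlr5), the neutrophil marker Ly6g and the adipocyte marker Cidec, with lines at group means. In Saa2, Reg4, Nox1 and Ly6g wild-type replicates 1 and 3 are the highest libraries, and in Arg2, Tlr5 and Cidec they are the lowest. Other neutrophil markers did not share the pattern of Ly6g: Cxcr2 ranged from 2.4 to 3.11 FPKM and S100a8 reached at most 0.15. Adipocyte markers differed in how near wild-type replicate 2 lay to the lowest knock-out. Cidec (19.41 against 23.2 FPKM) and Lpl (13.04 against 13.2) were near it, while Adipoq (1.21 against 2.35) and Cfd (7.55 against 13.78) were further below.

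Of 41 listed cytokine, receptor and signalling genes that act upstream, 40 were in the table and 31 were tested. Positive log2 fold changes numbered 12 and negative 19 (median -0.03). In limma 0 of the 31 were called, and the unadjusted p was under 0.05 in 7 (12.5% of all genes). Without wild-type replicate 2, 6 of the 31 were called higher (9.21% of all genes) and 3 lower (7.19%). With the position covariate 0 were called and the median was -0.03, with 2 of the 31 at an unadjusted p under 0.05 (3.75% of all genes). Tlr5, the receptor for flagellin, stood at 5.42, 3.99 and 4.02 FPKM in the knock-outs and 0.97, 2.68 and 0.84 in the wild-types (1.20 ± 0.28, adjusted p = 0.396, limma). Rela, an NF-kB subunit, was at -0.24 and the transcription factor gene Cebpd at -1.09, each at adjusted p = 0.396. Without wild-type replicate 2, Tlr5 was called higher (1.51, adjusted p = 0.00310, limma) and Cebpd lower (-1.52, 0.00425), while Rela was not called (-0.26, 0.0890). With the covariate, Tlr5 stood at 0.58, Cebpd at -0.26 and Rela at -0.19. The genes that follow were chosen after their values were seen. The interleukin-22 receptor gene Il22ra1 and the signal carrier Stat3 varied little, from 21.16 to 32.67 and from 31.7 to 36.94 FPKM. Il17a was listed at 0 in 5 libraries and at 0.09 in wild-type replicate 3. Other listed genes varied more, Tlr2 from 2.2 to 17.39 FPKM, lowest in wild-type replicates 1 and 3, and Il18 from 27.07 to 161.65, highest in them.

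Further defence genes of the epithelial surface were listed too: 22 of 24 were in the table and 13 were tested, 5 positive and 8 negative (median -0.62). In limma 0 of the 13 were called, with 5 at an unadjusted p under 0.05 (12.5% of all genes). The 4 with the lowest p were negative: Gpx2, a peroxidase that removes hydrogen peroxide (-0.66), Wfdc2, a secreted protease inhibitor (-1.61), Pigr, the carrier of IgA (-0.71), and the trefoil peptide Tff3 (-1.05), each at adjusted p = 0.396. Without wild-type replicate 2, 1 of the 13 was called higher (9.21% of all genes) and 5 lower (7.19%). Among the 5 lower were Wfdc2 (-2.13, adjusted p = 0.00245, limma), Pigr (-0.98, 0.00310) and Gpx2 (-0.78, 0.0205), while Tff3 was not called (-1.27, 0.0610). With the position covariate 0 of the 13 were called and the median was -0.21, with 2 at an unadjusted p under 0.05 (3.75% of all genes). Wfdc2 then stood at -0.60, Pigr at -0.21, Gpx2 at -0.48 and Tff3 at -0.72.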

How the data were processed

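The mouse table gives FPKM per gene as deposited, named so per the file headers and printed to 2 decimals. Per the submitters' processing notes, the tools were edgeR, HTSeq, Bowtie2 and HISAT, with no version or role stated. The mouse build is not given in the sources used here. Read depth is unknown, so no counting interval is given. Groups and replicate numbers came from the sample titles. The labels do not say that the libraries of a group came from separate animals, and p-values then measure only the spread between these samples, which may be technical.

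FPKM were compared as log2(FPKM + 1) with limma 3.58.1 in R 4.3.3, with a trend in the variance, over genes with a mean of at least 1 FPKM in the 6 libraries. P-values were adjusted over all genes tested (Benjamini-Hochberg). The procedure was tested on simulated data with independent noise in each library. That simulation held no clusters of libraries like those seen here, so it does not show how the fits behave on these data. The members, lists and tests were chosen with earlier results of these data known. Named were all 10 genes, direct partners, the 4 tested genes of each related list with the lowest p, and the 2 genes nearest each member by Pearson r. In 1 list, 1 such gene is not reported here, and the list was counted with it. Alternatives were other pseudocounts, filters, scalings and variance models, a replicate block, the position score and leaving out each library. The position score was the mean log2(FPKM + 1) over the proximal genes Hoxb8, Hoxb7 and Hoxb6 less the same mean over Hoxb13, Hoxa13, Hoxd11, Hoxd12 and Hoxd13. No per-sample column of the mouse table was left unused.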

Additional observations from a re-analysis of the deposited data

How the results depend on the processing

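In limma 0 of the tested genes of the set and 0 of all genes were called under each alternative fit except the removal of wild-type replicate 2. Over the removals of 1 library, the genes of the set called ranged from 0 to 5 and all genes called from 0 to 1861 (1045 higher, 816 lower), the upper ends being without wild-type replicate 2. Of 161 refitted log2 fold changes, 152 kept direction and side of the threshold, 5 passed it (those without wild-type replicate 2) and 4 turned sign. Those 4 were Reg3g (-0.0367), Retnlb (-0.14) and Ang4 (-0.43) with the position score as covariate and Ang4 without wild-type replicate 3 (-0.0127, the low end of a range up to 1.33 over removals of 1 library). The untested log2 difference of Lcn2, -0.10, moved to 0.42 with that covariate.

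The replicate block called 0 genes, with 5 of the 9 tested genes of the set and 1242 of all genes at an unadjusted p under 0.05. The labels do not say whether same-numbered libraries were paired. Their deviations from the group means correlated at -0.45, -0.14 and 0.15, and knock-out 1 with wild-type 2 at 0.33. With 3 libraries per group, these values cannot show whether a pairing existed. Saa3 and Duox2, whose groups do not overlap, cannot turn sign when a library is left out. Depth is unknown, which limits values below 1 FPKM most.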
